A study of Homo sapiens with 20 samples.

Results

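The adrenergic core regulatory transcription factors are 8 genes, PHOX2A, ISL1, HAND1, HAND2, GATA2, GATA3, TBX2 and TFAP2B. They were taken by gene name, with the estimated counts of a gene summed over its transcripts, and are 8 of the 57536 genes with transcripts in the files. All 8 had at least 1 estimated count in each condition, the requirement that left 36016 genes for testing. The samples are NGP cells, a human neuroblastoma cell line, treated in 6-well culture flasks with a racemic mixture of nutlin-3 at 8 µM (10 samples) or with ethanol as vehicle (10 samples). Nutlin-3 occupies a protein-binding pocket of MDM2, an E3 ubiquitin ligase. The duration of treatment is not given in the sources used here. All 20 samples come from this 1 line, and the methods call them biological replicates without saying how the cultures were kept apart, so that p-values measure the spread between these samples. In bulk RNA, fewer cells expressing a gene and less RNA per cell cannot be told apart.

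Neuroblastoma is a childhood tumour of the sympathetic nervous system, and its cells can take an adrenergic or a mesenchymal state. In the adrenergic state a small group of transcription factors binds the enhancers of its own members as well as those of noradrenergic genes, which is called a core regulatory circuit. During development the same factors drive neural crest cells into sympathetic neurons and chromaffin cells: PHOX2A is a paired-like homeodomain protein, ISL1 a LIM homeodomain protein, HAND1 and HAND2 basic helix-loop-helix (bHLH) proteins, GATA2 and GATA3 zinc finger proteins, TBX2 a T-box protein that mainly represses transcription, and TFAP2B an AP-2 protein.

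Library totals ran from 14455477 to 19532971 estimated counts, and a listed gene had between 1558 and 17969 of them in any sample. The 10 noradrenergic markers, such as TH, the rate-limiting enzyme of catecholamine synthesis, together reached 1880 to 2180 TPM (a level per transcript length, scaled to an equal total in each sample) in the vehicle samples, against 1.27 to 2.82 TPM for 7 Schwann cell and neural crest markers. Most of the noradrenergic sum came from CHGA, a secretory granule protein (mean 1070 TPM), and TH (mean 470 TPM). Genes were called significantly differentially expressed (SDE) by the edgeR quasi-likelihood (QL) test at 5% FDR. MDM2, the check of the treatment, had a median of 239 CPM (estimated counts scaled to library size after TMM normalization) in the vehicle samples and 5410 CPM in the nutlin samples. Of all genes tested, 49.2% were SDE, 27.9% higher and 21.4% lower after nutlin. The log2 fold change (LFC) of nutlin against vehicle had a median of 0.22 over all genes tested, but of -0.23 over the 9901 genes that averaged 10 CPM or more, to which the 8 factors belong and of which 84.6% were SDE.

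All 8 factors were SDE, which is to be read against that 84.6%. GATA3 and TBX2 were higher after nutlin, and the other 6 were lower, although 3 of these (PHOX2A, HAND2 and ISL1) were no longer SDE when only genes of at least 10 CPM entered the scaling. The largest change was in TFAP2B, at 34.9% of its vehicle level, and the smallest were in PHOX2A and ISL1. For 6 of the 8 factors no nutlin sample lay within the range of the vehicle samples, against 23.4% of all genes tested. Most genes tested averaged less than 10 CPM, so that this share is not matched to the level of the factors. The share among genes of at least 10 CPM was not determined. The median LFC of the 8 was -0.22. Within a condition the level of a factor varied between samples with a coefficient of variation of 3.03% (ISL1 in nutlin) to 11.3% (TBX2 in vehicle).

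**Figure D1:**
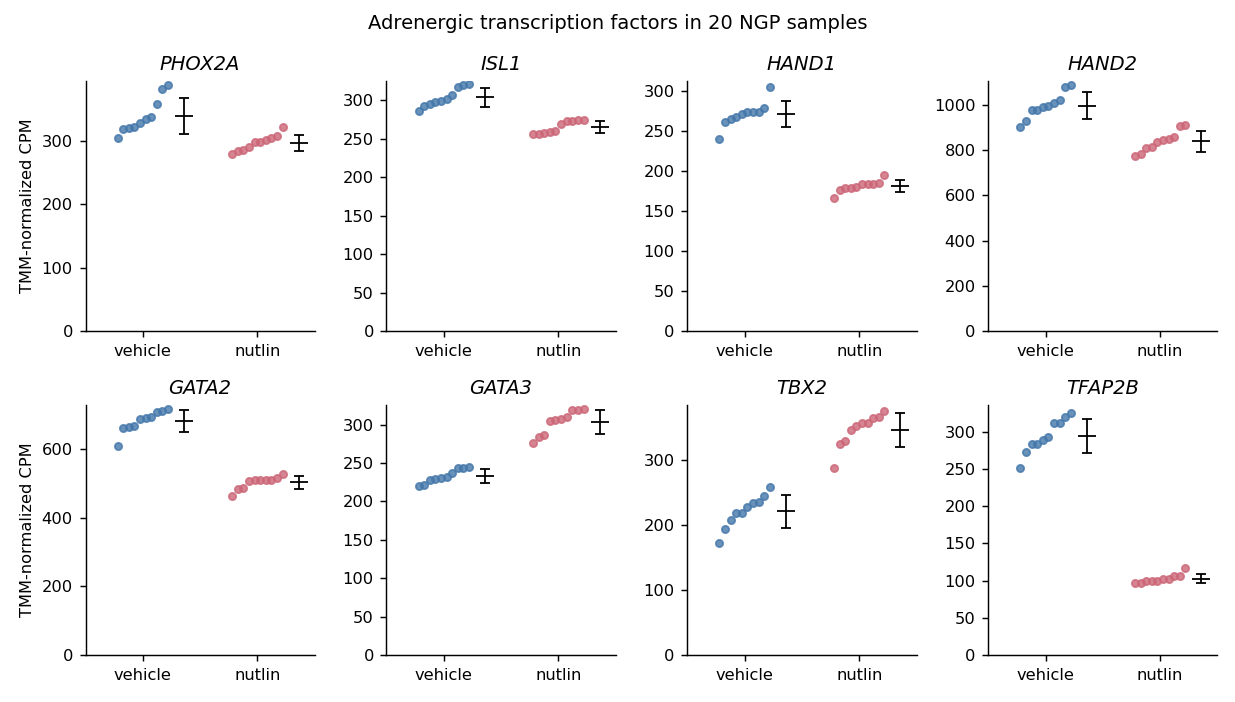
TMM-normalized CPM (y axis, from 0) of the 8 factors in the 10 vehicle (blue) and 10 nutlin (red) samples, sorted by level within a group, with the group mean ± SD beside the points. The groups are apart for 6 factors and overlap for PHOX2A and HAND2, and TFAP2B falls from between 252 and 325 CPM to between 96.8 and 117 CPM.

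PHOX2A (ENSG00000165462, GRCh38 chromosome 11, 72239077 to 72245664, minus strand), a homeodomain factor that acts upstream of the enzymes of noradrenaline synthesis, had 305 CPM in the lowest, 331 CPM in the median and 389 CPM in the highest vehicle sample. In the nutlin samples the lowest, median and highest values were 279, 299 and 322 CPM. The groups overlapped, with 8 of 10 nutlin samples below every vehicle sample and all 10 below the vehicle median. Its LFC was -0.19 (SE 0.041, 95% interval -0.28 to -0.11, edgeR QL adjusted p = 1.85e-04), close to the -0.23 of abundant genes in general. On the scale set by genes of at least 10 CPM alone, the LFC was 0.04 (edgeR QL adjusted p = 0.383), so that the direction for PHOX2A depended on the scaling.

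ISL1 (ENSG00000016082, chromosome 5, 51383448 to 51394730, plus strand), a LIM homeodomain factor of sympathetic and motor neurons, ranged in the vehicle samples from 286 to 322 CPM with a median of 300 CPM. After nutlin it ranged from 256 to 274 CPM with a median of 265 CPM. The groups did not overlap, but the gap between them was small. Its LFC was -0.20 (SE 0.0307, 95% interval -0.26 to -0.13, edgeR QL adjusted p = 2.21e-06), and it turned to 0.03 (edgeR QL adjusted p = 0.201) with the scaling on genes of at least 10 CPM. ISL1 starts 116 bp from ISL1-DT (ENSG00000259663), a long non-coding RNA (lncRNA) transcribed in the opposite direction. The stretch before ISL1 is shown because both starts lie in it: chr5:51383198-51383448, plus strand, RefSeq on GRCh38.p14, with capitals from the start of ISL1-DT at 51383332 to the first base of ISL1 at 51383448.
ISL1: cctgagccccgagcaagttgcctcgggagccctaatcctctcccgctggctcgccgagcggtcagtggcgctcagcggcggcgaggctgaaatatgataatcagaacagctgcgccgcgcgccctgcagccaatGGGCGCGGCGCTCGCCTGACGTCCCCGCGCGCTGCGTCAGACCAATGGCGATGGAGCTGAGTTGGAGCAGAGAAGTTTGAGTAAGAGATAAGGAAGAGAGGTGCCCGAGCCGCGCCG

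HAND1 (ENSG00000113196, chromosome 5, 154474972 to 154478227, minus strand), a bHLH factor that pairs with E proteins to bind E-boxes, had 240 CPM in the lowest, 272 CPM in the median and 305 CPM in the highest vehicle sample. The corresponding nutlin values were 166, 181 and 195 CPM. Every nutlin sample was below every vehicle sample. Its LFC was -0.58 (SE 0.0359, 95% interval -0.65 to -0.51, edgeR QL adjusted p = 4.52e-15), a fall to 66.9% of the vehicle level. It was -0.35 and still SDE with the scaling on genes of at least 10 CPM.

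HAND2 (ENSG00000164107, chromosome 4, 173524969 to 173530229, minus strand), the bHLH relative that sympathetic neurons need for their noradrenergic genes, was the most abundant of the 8, with a vehicle range of 902 to 1090 CPM and a median of 994 CPM. After nutlin it ranged from 773 to 912 CPM with a median of 841 CPM. Of the nutlin samples, 8 lay below every vehicle sample and 2 lay inside the vehicle range, above vehicle replicate 4 alone. Its LFC was -0.25 (SE 0.0385, 95% interval -0.33 to -0.17, edgeR QL adjusted p = 1.75e-06), but -0.02 (edgeR QL adjusted p = 0.640) with the scaling on genes of at least 10 CPM. The lncRNA HAND2-AS1 (ENSG00000237125) runs away from HAND2 on the other strand, and 13 of its 65 annotated transcripts start at 1 position, 229 bp from the HAND2 start. The stretch between the 2 starts is in capitals: chr4:173530229-173530479, shown on the minus strand, RefSeq on GRCh38.p14, from 173530458 to the first base of HAND2 at 173530229.
HAND2: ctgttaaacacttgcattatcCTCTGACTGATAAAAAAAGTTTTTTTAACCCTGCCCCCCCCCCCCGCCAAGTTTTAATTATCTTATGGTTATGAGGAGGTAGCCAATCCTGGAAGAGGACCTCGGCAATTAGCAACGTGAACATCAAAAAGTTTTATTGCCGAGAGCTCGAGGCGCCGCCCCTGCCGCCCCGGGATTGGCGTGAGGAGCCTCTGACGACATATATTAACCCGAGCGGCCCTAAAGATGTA

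GATA2 (ENSG00000179348, chromosome 3, 128479427 to 128493201, minus strand), a zinc finger factor that binds GATA motifs, ranged from 609 to 718 CPM with a median of 690 CPM in the vehicle samples. It ranged from 465 to 527 CPM with a median of 511 CPM in the nutlin samples. No nutlin sample reached the lowest vehicle sample. Its LFC was -0.44 (SE 0.0333, 95% interval -0.51 to -0.37, edgeR QL adjusted p = 7.16e-13). On the scale set by genes of at least 10 CPM it was -0.21, still SDE.

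GATA3 (ENSG00000107485, chromosome 10, 8045378 to 8075198, plus strand), its relative and a factor that differentiating sympathetic neurons need, went the other way. The vehicle samples ranged from 220 to 245 CPM with a median of 232 CPM, and the nutlin samples from 276 to 321 CPM with a median of 307 CPM. All 10 nutlin samples were above all vehicle samples. Its LFC was 0.38 (SE 0.034, 95% interval 0.31 to 0.45, edgeR QL adjusted p = 2.56e-11), and 0.61 with the scaling on abundant genes.

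TBX2 (ENSG00000121068, chromosome 17, 61399843 to 61409466, plus strand), known as a repressor of genes that stop the cell cycle, had the largest rise of the 8. Its vehicle values ranged from 172 to 258 CPM with a median of 223 CPM, and its nutlin values from 287 to 375 CPM with a median of 355 CPM. The groups did not overlap although TBX2 had the widest spread between replicates. Its LFC was 0.65 (SE 0.0558, 95% interval 0.53 to 0.76, edgeR QL adjusted p = 1.28e-11). Among the genes of at least 10 CPM, 9.03% had a higher LFC than TBX2.

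TFAP2B (ENSG00000008196, chromosome 6, 50818723 to 50847619, plus strand), an AP-2 factor of the neural crest and sympathetic lineage, ranged from 252 to 325 CPM with a median of 291 CPM in the vehicle samples. In the nutlin samples it ranged from 96.8 to 117 CPM with a median of 101 CPM. The lowest vehicle sample was still well above the highest nutlin sample. Its LFC was -1.52 (SE 0.0438, 95% interval -1.61 to -1.43, edgeR QL adjusted p = 1.65e-23). Among the genes of at least 10 CPM, 6.58% had a larger absolute LFC.

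Promoter windows of 250 bases before to 50 bases after the annotated start were matched for 7 of the 8 factors in RefSeq. They were searched on both strands for short motifs, which may overlap each other. The E-box CANNTG, the motif bound by bHLH factors such as HAND1 and HAND2, was in 5 of the 7 windows and in 68.7% of 34943 windows of all genes. The AP-2 motif GCCNNNGGC was in 3 of the 7 (HAND1, GATA2 and GATA3) and in 23.2% of all windows. The GATA motif AGATAA was in the windows of HAND2 and ISL1 (10.4% of all windows), at 31 bases before the start of ISL1, and the homeodomain motif TAATTA in that of HAND2 (4.85%). Such matches describe these letters only. The windows of the factors had a GC content of 43.0% (TFAP2B) to 73.7% (PHOX2A), with a median of 58.7% over all windows.

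Compared per length, as TPM, the factors kept HAND2 at the top in both conditions but changed places below it. In the vehicle samples HAND2 (560 ± 38.9 TPM, SD, n = 10) was followed by GATA2 (322 ± 21.9 TPM) and PHOX2A (321 ± 19.5 TPM). GATA2 and PHOX2A were not told apart, with GATA2 above PHOX2A in 6 of 10 samples. HAND1 (186 ± 12.2 TPM), ISL1 (154 ± 11.1 TPM) and GATA3 (106 ± 6.7 TPM) came next, each above the one after it in every sample and without overlap. TFAP2B (76.5 ± 8.72 TPM) and TBX2 (66.5 ± 8.85 TPM) were last and overlapped, with TFAP2B higher in 8 of 10 samples.

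After nutlin the order was HAND2 (462 ± 37.4 TPM), PHOX2A (269 ± 18.4 TPM), GATA2 (243 ± 18.7 TPM), GATA3 (138 ± 12.4 TPM), ISL1 (137 ± 5.18 TPM), HAND1 (124 ± 9.3 TPM), TBX2 (111 ± 14.5 TPM) and TFAP2B (29.7 ± 2.85 TPM). PHOX2A was then above GATA2 in all 10 samples, GATA3 and ISL1 were not told apart (GATA3 higher in 5 of 10 samples), and TBX2 was above TFAP2B in all 10. ISL1 was above HAND1, and HAND1 above TBX2, in all 10 nutlin samples although the ranges of these neighbours overlapped. The 8 factors together summed to 1790 ± 101 TPM in the vehicle and 1510 ± 101 TPM in the nutlin samples, 84.5% of the vehicle mean. The groups were only just apart, with 1650 TPM in the lowest vehicle and 1640 TPM in the highest nutlin sample. Abundant genes in general were also lower, with a median LFC of -0.23 at 10 CPM or more, so that this fall is not particular to the factors.

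**Figure D2:**
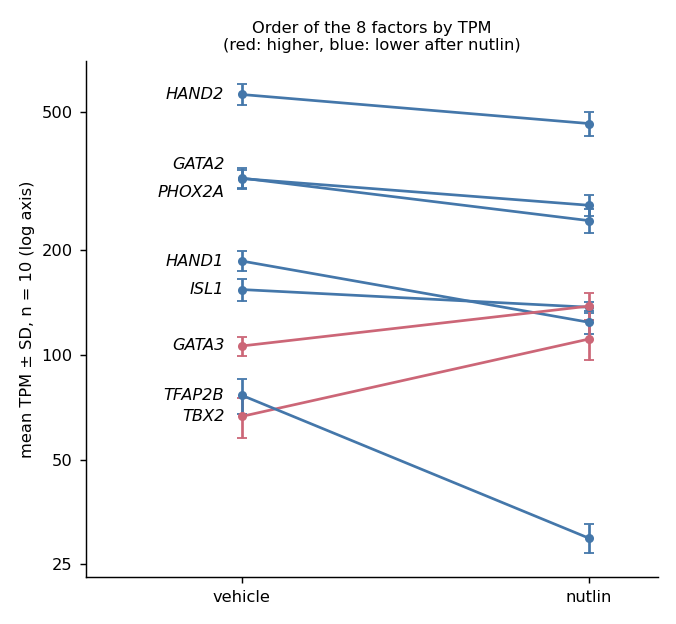
Mean TPM ± SD (log axis, n = 10) of the 8 factors in vehicle and nutlin samples, joined by a line for each factor that is red where the factor was higher and blue where it was lower after nutlin by the edgeR QL test (for PHOX2A, HAND2 and ISL1 only with all genes in the scaling). HAND2 stays on top, GATA3 rises to the level of ISL1, and TFAP2B drops from 76.5 to 29.7 TPM, below all others.

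Ratios between relatives within a sample do not depend on the scaling of the libraries. The log2 ratio of HAND1 to HAND2 TPM was -1.59 ± 0.0917 (SD, n = 10) in the vehicle and -1.90 ± 0.112 (n = 10) in the nutlin samples. The difference was -0.31 (SE 0.0457), and the groups did not overlap (two-sided permutation test, p = 2e-05, the smallest that 100000 resamples can give, adjusted p = 2e-05 over 2 ratios). HAND1 thus fell relative to HAND2. The log2 ratio of GATA2 to GATA3 went from 1.60 ± 0.0591 (n = 10) to 0.82 ± 0.0789 (n = 10), a difference of -0.79 (SE 0.0312, same permutation test, p = 2e-05, adjusted p = 2e-05). In linear terms the median ratio of GATA2 to GATA3 went from 3.05 to 1.77.

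The annotated transcripts of a gene were compared by their share of its estimated counts, for 8 transcripts of the 4 genes (PHOX2A, GATA2, GATA3 and TBX2) with at least 2 transcripts of 10% or more. Such shares depend on how kallisto divides reads that fit several transcripts. In PHOX2A the 3-exon transcript PHOX2A-201 took 66.5% ± 3.68 (SD, n = 10) of the counts in the vehicle and 71.6% ± 2.54 (n = 10) in the nutlin samples, and the 2-exon PHOX2A-203 went from 33.1% ± 3.74 to 28.1% ± 2.47 (two-sided permutation tests, adjusted p = 0.00214 for both). The canonical TBX2-201 rose from 50.3% ± 3.88 to 55.9% ± 2.25 (permutation test, adjusted p = 0.00214), a difference of 5.61 points that came to 2.42 points as a share of TPM (permutation test, adjusted p = 0.0364), while TBX2-203, annotated with a retained intron, fell from 42.2% ± 2.62 to 37.5% ± 1.62 (permutation test, adjusted p = 4.8e-04). The canonical GATA2-201 fell from 72.5% ± 1.07 to 70.0% ± 1.68 (permutation test, adjusted p = 0.00214). All of these shares overlapped between the conditions. Shares of the same gene are tied to each other, so that the opposite changes within PHOX2A, and within TBX2, are not separate results. The remaining GATA2 and GATA3 transcripts did not pass, with GATA3-202 at 63.6% ± 2.52 and 63.1% ± 2.61 (permutation test, adjusted p = 0.731). In HAND1, HAND2, ISL1 and TFAP2B 1 transcript held at least 87.3% of the counts in every sample. The shares of TPM were lower for HAND2-201 (65.1% in vehicle, 66.6% in nutlin) and TFAP2B-202 (71.1% and 62.2%). For ISL1-201 they were 88.8% and 84.1%, and HAND1 had 1 transcript only.

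**Figure D3:**
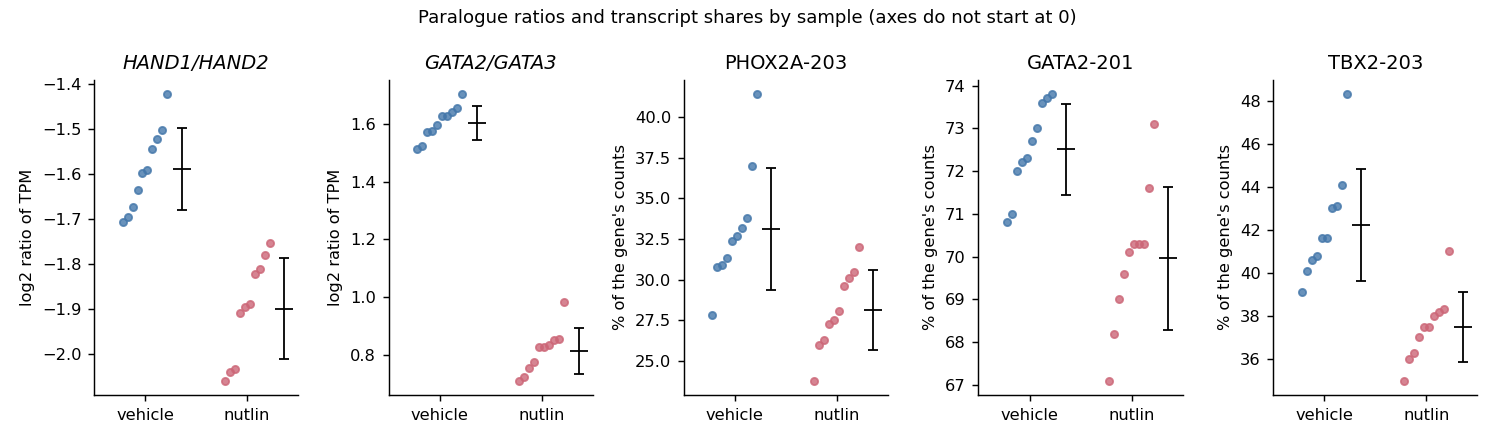
Log2 TPM ratios of HAND1 to HAND2 and of GATA2 to GATA3, and the percentage of the gene's estimated counts on PHOX2A-203, GATA2-201 and TBX2-203, in the 10 vehicle (blue) and 10 nutlin (red) samples, with mean ± SD beside the points. The y axes do not start at 0. The ratios are lower in every nutlin sample than in any vehicle sample, whereas the 3 transcript shares overlap.

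The genes around the factors were also tested, as several factors have a lncRNA on the other strand that overlaps them or starts close by. Of 16 annotated genes that overlap a factor or lie within 10 kb of one, 14 were tested: 9 were higher after nutlin, 2 were lower and 3 were not SDE. Among all lncRNAs tested, 30.0% were higher and 6.2% lower, and among the 420 lncRNAs of at least 10 CPM the median LFC was 0.24 and 58.6% were higher. The strand setting of the kallisto runs is not given in the sources used here. Where a gene and its antisense partner overlap, as for HAND2, GATA2, GATA3 and TBX2, reads of the 2 can then not be told apart with certainty.

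ISL1-DT went from a median of 123 CPM (116 to 145 CPM) in the vehicle to 207 CPM (194 to 217 CPM) in the nutlin samples, an LFC of 0.73 (SE 0.0363, edgeR QL adjusted p = 1.92e-17), while ISL1 itself was slightly lower or, with the scaling on abundant genes, not SDE. The transcript of ISL1-DT that starts in the printed stretch took 31.6% to 41.7% of its counts. HAND2-AS1, which was about as abundant as HAND2, went from 811 CPM (704 to 861 CPM) to 1040 CPM (931 to 1070 CPM), an LFC of 0.36 (SE 0.041, edgeR QL adjusted p = 5.08e-09). Transcripts starting within the RefSeq window of HAND2 took 82.2% to 86.7% of the HAND2-AS1 counts. In both pairs the lncRNA was higher in every nutlin sample than in any vehicle sample, whereas all 10 nutlin values of the factor beside it lay below its vehicle median. That position of the factors holds for the scaling on all genes. With the scaling on genes of at least 10 CPM, HAND2 was not SDE either (LFC -0.02, edgeR QL adjusted p = 0.640), while both lncRNAs stayed higher.

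GATA2-AS1 had a median of 24.8 CPM in the vehicle and 32.8 CPM in the nutlin samples (LFC 0.38, SE 0.0375, edgeR QL adjusted p = 2.97e-10), so that it rose where GATA2 fell. GATA3-AS1 rose from 45.7 to 65.4 CPM (LFC 0.54, SE 0.0465, edgeR QL adjusted p = 1.24e-11), in the direction of GATA3. TBX2-AS1 rose from 48.5 to 59.6 CPM with overlapping groups (LFC 0.26, SE 0.0503, edgeR QL adjusted p = 5.30e-05), in the direction of TBX2. These 5 lncRNAs were higher in all 13 other fits. LINC02875, which lies 2285 bp from TBX2, went from 0.397 to 2.89 CPM (LFC 2.84, SE 0.171, edgeR QL adjusted p = 2.36e-15), and ENSG00000267131, also antisense to TBX2, from 0.183 to 0.812 CPM. The 2 lower genes were INPPL1, whose end overlaps PHOX2A (LFC -0.18), and ENSG00000254293, a lncRNA 5690 bp from HAND1 (LFC -0.21), but INPPL1 was SDE and lower in 11 of 13 other fits and ENSG00000254293 in 4 of 12, and each changed sign in 1.

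**Figure D4:**
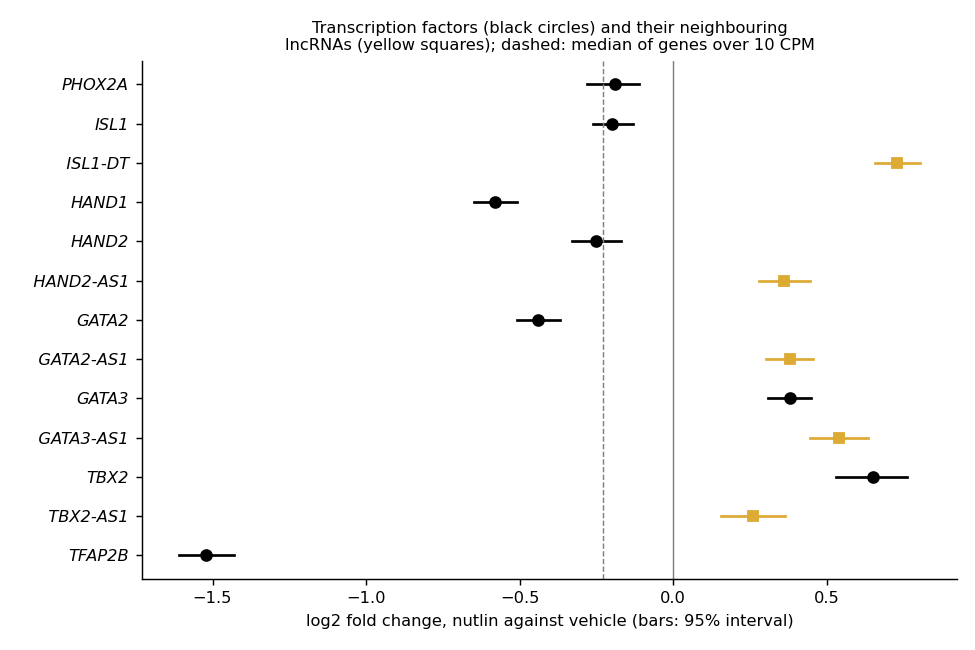
LFC of nutlin against vehicle with 95% intervals for the 8 factors (black circles) and 5 lncRNAs that overlap them or share their start region (yellow squares), from the edgeR QL fit. The solid line marks 0 and the dashed line the median of genes of at least 10 CPM (-0.23), which the intervals of PHOX2A, ISL1 and HAND2 include, and the 5 lncRNAs all lie to the right of 0.

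Of 17 other transcription factors of adrenergic neuroblastoma cells, 11 were lower after nutlin, 5 were higher and 1 was not SDE, with a median LFC of -0.48. This and the following list counts are to be read against 27.9% higher and 21.4% lower among all genes tested. Among genes of at least 10 CPM, 84.6% were SDE and the median LFC was -0.23. With only such genes in the fit, 8 of the list were lower and 4 higher. The lower ones included DACH1, a retinal determination factor (37.5 ± 3.77 to 9.55 ± 1.24 CPM, LFC -1.97, SE 0.0674), PBX3, a homeodomain cofactor (24.4 ± 2.2 to 7.37 ± 0.492 CPM, LFC -1.73, SE 0.0583), and EYA1, a transcriptional coactivator (12.6 ± 1.86 to 4.16 ± 0.478 CPM, LFC -1.60, SE 0.0862). In these 3 genes no nutlin sample reached the vehicle range. MYCN, SOX11, INSM1, INSM2, SATB1 and SIX3 were also lower, and TBX3, the closest relative of TBX2, was higher, as were KLF7, HEY1 and ZNF536.

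Among 20 partners and cofactors, 10 were lower, 8 were higher and 2 were not SDE, with a median LFC of -0.18, near that of abundant genes. With genes of at least 10 CPM only, 7 were lower and 9 higher. The LIM-only protein LMO4, which binds the same LDB1 cofactor as ISL1, fell from 235 ± 10.9 to 76.4 ± 8.06 CPM (LFC -1.62, SE 0.0488). ZFPM2, a Friend-of-GATA cofactor, fell from 9.04 ± 1.05 to 2.98 ± 0.735 CPM (LFC -1.60, SE 0.109). The homeodomain cofactors MEIS2 (240 ± 13.0 to 82.9 ± 3.72 CPM, LFC -1.54, SE 0.0359) and MEIS1 (182 ± 7.03 to 70.1 ± 2.96 CPM, LFC -1.38, SE 0.0328) fell as well. On the side of the bHLH factors, the E protein genes TCF3 (LFC -1.0), TCF4 (LFC -0.20) and TCF12 (LFC -0.29) were lower. TCF4 and TCF12, lower in 11 of 13 other fits each, were close to the -0.23 of abundant genes in general. ID1, ID2, ID3 and ID4, whose proteins hold E proteins away from DNA, were all higher. The groups overlapped for TCF4, ID2 and ID4. ZFPM1, the other Friend-of-GATA gene, was higher.

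Of 15 paralogues of the factors, 12 were tested, and 7 of these had a mean under 1 CPM. ISL2 was higher (13.5 ± 1.11 to 20.1 ± 1.66 CPM, LFC 0.57, SE 0.0558), as were TBX1 (LFC 0.52, SE 0.193) and TBX4, and TWIST1, a bHLH factor, was lower (153 ± 5.61 to 80.1 ± 5.58 CPM, LFC -0.94, SE 0.0372). The other 8, with GATA4, GATA5, GATA6, TFAP2C, TFAP2D and TFAP2E among them, were not SDE. The median LFC of the 12 was 0.40.

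The noradrenergic markers, which include known targets of these factors, were mostly higher after nutlin: 6 were higher, 1 lower and 3 not SDE, with a median LFC of 0.36. Their sum reached 2610 to 3580 TPM in the nutlin samples, again mostly from CHGA (mean 1580 TPM) and TH (mean 745 TPM). TH rose from 490 ± 69.9 to 747 ± 73.9 CPM (LFC 0.61, SE 0.0688), and CHGA, a secretory granule protein, from 1610 ± 109 to 2340 ± 455 CPM (LFC 0.54, SE 0.0747). The vesicular monoamine transporters rose from low levels, SLC18A1 from 1.96 ± 0.328 to 8.29 ± 0.892 CPM (LFC 2.07, SE 0.0954) and SLC18A2 from 0 in 9 of 10 vehicle samples to between 1.13 and 2.86 CPM. DBH, which makes noradrenaline and is a textbook PHOX2A target, was at 133 ± 7.95 and 129 ± 4.75 CPM (LFC -0.05, edgeR QL adjusted p = 0.300), but its LFC was 0.18 (edgeR QL adjusted p = 3.00e-05) with the scaling on genes of at least 10 CPM. The lower gene was SLC6A2, the noradrenaline transporter (LFC -0.11), which was SDE and lower in 7 of 13 other fits but SDE and higher with the scaling on genes of at least 10 CPM (LFC 0.12, edgeR QL adjusted p = 0.0216). On that scale all 7 noradrenergic markers tested were higher, and the rest of the list was below the level required. Of the 9901 genes tested on it, 84.8% were SDE, with 4222 higher and 4176 lower.

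Markers of other cell states were measured as well, and their part in the changes of the 8 factors was not tested. Of 18 genes listed as mesenchymal transcription factors, 9 were higher, 3 lower and 4 not SDE, with a median LFC of 1.39. Among all genes tested, 27.9% were higher and 21.4% lower. Of the 16 tested genes of the list, 5 had a mean under 1 CPM, so that the count and the median rest partly on genes near the floor. With genes of at least 10 CPM only, 2 were higher and 1 lower. MEOX1 and MEOX2 were too low to be tested, at 0 in all 10 vehicle samples. FOSL1 rose from 0.454 ± 0.179 to 15.4 ± 1.3 CPM (LFC 5.07, SE 0.118), SOX9 from 1.06 ± 0.289 to 17.0 ± 3.31 CPM (LFC 3.99, SE 0.136) and RUNX1 from 0.38 ± 0.163 to 2.18 ± 0.605 CPM (LFC 2.50, SE 0.228). PRRX1, a defining mesenchymal factor, rose from 0.503 ± 0.138 to 1.98 ± 0.602 CPM with overlapping groups (LFC 1.96, SE 0.215). The 3 lower genes were TWIST1, TBX18 and NOTCH2, which encodes a receptor, and SNAI2 was not SDE. The list as a whole summed to 175 to 215 TPM in the vehicle and 140 to 183 TPM in the nutlin samples, a sum in which TWIST1, which is also in the list of paralogues, was the most abundant. Of the 7 Schwann cell and neural crest markers, 2 were higher, 1 lower and 3 not SDE, with a sum of 1.27 to 2.82 TPM before and 1.83 to 5.17 TPM after nutlin, and SOX10 was at 0 in 9 vehicle and all 10 nutlin samples. The 4 cholinergic markers were higher but had a mean under 1 CPM, and SLC5A7 among them was SDE in 4 of the other fits only, with a sum of 0.125 to 0.691 TPM in the vehicle and 1.16 to 5.21 TPM in the nutlin samples.

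**Figure D5:**
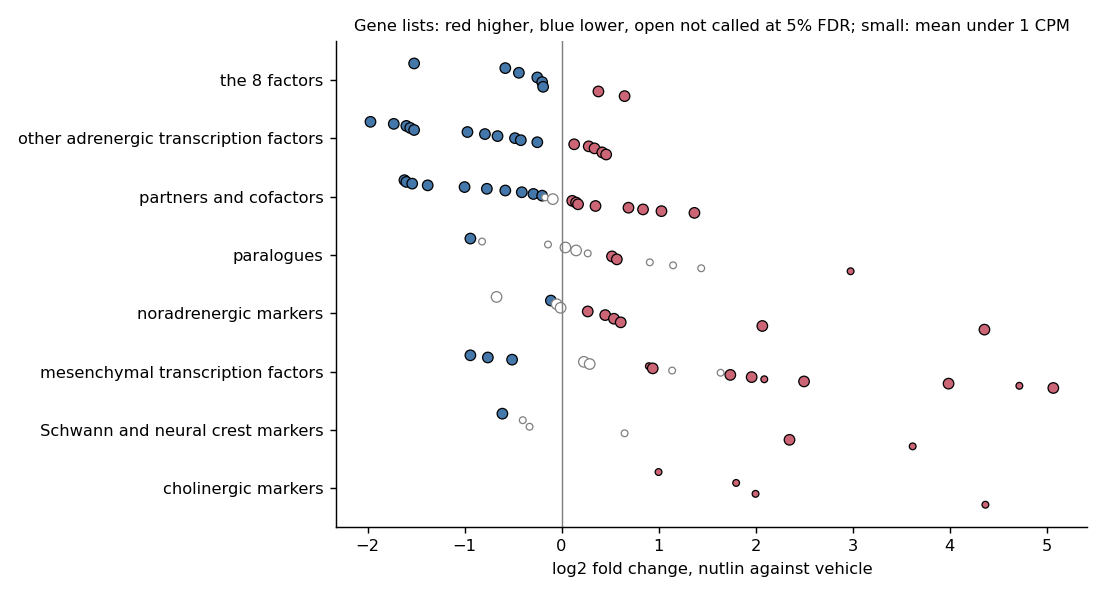
LFC of nutlin against vehicle for the 8 factors and 7 lists of related genes, 1 point a gene, red where SDE and higher, blue where SDE and lower and open where not SDE, with small points for genes with a mean under 1 CPM. Other adrenergic transcription factors lie mostly left of 0 (11 lower, 5 higher), noradrenergic markers mostly right (6 higher, 1 lower), and the mesenchymal factors reach an LFC of 5.07. Among the SDE genes shown, the signs of PHOX2A, ISL1, TCF4 and SLC6A2 turned with the scaling on genes of at least 10 CPM, and that of KCTD1 with an offset for effective length.

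Within the conditions, the factors varied with different genes. The similarity was measured as the Pearson correlation of the deviations from the group mean of log2 CPM over 20 samples, among 9900 other genes of at least 10 CPM, and is given as a description, since the samples share their library preparation and scaling. The most similar gene was DAZAP1 for PHOX2A (r = 0.91), PLD3 for HAND1 (r = 0.85), TLX2 for HAND2 (r = 0.84) and PPP1R9B for GATA2 (r = 0.91). It was PPARD for GATA3 (r = 0.86), GAR1 for ISL1 (r = 0.89), SMAD6 for TBX2 (r = 0.92) and the pseudogene MTND6P4 for TFAP2B (r = 0.91). None of the 8 had another of the 8 as its most similar gene, and the closest pairs among them were HAND1 with GATA2 and HAND1 with TBX2 (r = 0.74 each).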

How the data were processed

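Poly(A) RNA of NGP cells was sequenced by the authors from TruSeq stranded mRNA libraries, as paired-end reads, and quantified with kallisto 0.42.4 on GRCh38 transcripts. For each of 198968 transcripts the authors deposited estimated counts (not normalized), the effective length in bases, and TPM values, which kallisto scaled by effective length and library size. The 191106 transcripts found in GENCODE release 44 (96.0%) were summed per gene, which is a later annotation than the one the authors used, and the estimated counts were rounded. Genes of all types that reached 1 count per condition were tested with edgeR 4.0.16 in R 4.3.3 (QL F-test, TMM, condition as the only term, Benjamini-Hochberg adjustment). DESeq2 1.42.0 and limma 3.58.1 (voom) were alternatives. Intervals and standard errors cover the spread between samples, not errors in assigning reads to transcripts. Plots were made with Python 3.11.15 and matplotlib 3.10.9.

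The 8 factors and the lists were chosen with earlier results of these data known, so that they support nothing about pathways beyond their own values. Named with values were the 8 factors, at most the 4 SDE genes of largest absolute LFC per list (genes with a mean under 1 CPM were counted only), neighbouring genes within 10 kb, MDM2, and the most similar gene of each factor. DBH and SLC6A2 were named after their values were seen, and the LFCs of TCF3, TCF4 and TCF12 were added likewise. A further gene of a list is not reported here by name. Both conditions share 8 replicate numbers, but nothing says that equal numbers were treated together, so samples were not paired.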

Additional observations from a re-analysis of the deposited data

Results flagged for a closer look

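In 36 groups of 10 samples (the level of each factor, the 2 ratios and the 8 transcript shares in each condition), 3 single samples stood farther from the rest of their group than Dixon's 95% limit allows, which chance gives in about 1 of 20 groups. GATA2 in vehicle replicate 4 was at 609 CPM, against a median of 690 CPM in that group. Its gap to the next sample took 0.487 of the group's range. Vehicle replicate 4 was also lowest in its group for PHOX2A (305 CPM), HAND1 (240 CPM) and HAND2 (902 CPM). It was lowest for GATA3 (220 CPM) and TBX2 (172 CPM), highest for ISL1 (322 CPM) and inside the range for TFAP2B (312 CPM). These values did not pass the limit, but the deviation of this sample was not confined to GATA2. Correlations between the factors were not computed without this sample. TFAP2B in nutlin replicate 4 was at 117 CPM, against a median of 101 CPM, with a gap of 0.538 of the range. The log2 ratio of GATA2 to GATA3 in the same nutlin sample was 0.984, against a median of 0.827, with a gap of 0.471. Without vehicle replicate 4 the LFC of GATA2 was -0.45, and without nutlin replicate 4 that of TFAP2B was -1.54.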

How the results depend on the processing

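The calls of the 8 factors held in direction and at 5% FDR in 109 of 112 comparisons with an alternative. The alternatives were DESeq2 size factors, the DESeq2 Wald test, limma voom, filterByExpr with a minimum count of 10, the replicate block and the same 16 samples with no block, an effective length offset, unmatched transcripts in the library sizes, protein_coding transcripts only and 1% FDR. Chosen after seeing the data were mRNAs and lncRNAs only, genes of at least 10 CPM only, and the leaving out of vehicle or nutlin replicate 4. The exceptions all came with genes of at least 10 CPM only, which moved the median LFC by 0.23: PHOX2A reversed to 0.04, ISL1 reversed to 0.03 and HAND2 came to -0.02, so that 3 factors were lower in place of 6. With filterByExpr, PHOX2A was at -0.11, ISL1 at -0.11 and HAND2 at -0.17, all still SDE. With genes of at least 10 CPM only, 24 list genes were called higher and 16 lower, against 37 and 26 (fewer list genes were tested), and 0 neighbouring genes were lower. Of the neighbouring genes, 1 in place of 2 was lower with DESeq2 size factors, the DESeq2 Wald test, filterByExpr, the replicate block, the same 16 samples with no block, 1% FDR and without vehicle replicate 4, and 0 with the effective length offset.

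The 8 pairs of samples with the same replicate number had correlations of their deviations from the group means between -0.0474 and 0.0575, and no nutlin sample correlated best with its own number. Samples of equal number were thus not alike by this measure, which cannot decide whether they were treated together. The block changed no call of the 8 factors (2 higher, 6 lower), and it gave 35 list genes higher and 27 lower. As shares of TPM, and with differences taken within the 8 replicate numbers, 5 transcript shares (of PHOX2A, TBX2 and GATA2) passed as before, with those of the same gene tied to each other. The 2 ratios differed by -0.33 (HAND1 to HAND2) and -0.82 (GATA2 to GATA3) with CPM in place of TPM.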
